A study of Mus musculus with 35 samples.

Results

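Hypoxia and glycolysis genes were followed in mouse brain hemispheres after focal ischemia. The set holds 10 genes chosen by name as targets of the hypoxia-inducible factors (HIF) or as steps of glycolysis: Adm, Vegfa, Egln3, Bnip3, Slc2a3, Hk2, Pfkfb3, Pgk1, Ldha and Pdk1. Every probe set annotated to 1 of these genes was taken, which gave 22 of 45037 probe sets and 10 of 18193 genes on the array. Slc2a3 and Pdk1 had 4 probe sets each and Pgk1 had 3. Adm, Vegfa, Egln3 and Pfkfb3 had 2 each, and Bnip3, Hk2 and Ldha had 1 each. No member probe set was annotated to a further gene.

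The study compared male mice lacking the beta2 adrenergic receptor with wild type mice, all on the FVB background, on Affymetrix mouse arrays. Total RNA came from the ischemic hemisphere 24 h after middle cerebral artery occlusion (MCAO), in 7 knockout (KO) and 7 wild type (WT) arrays, or from the ipsilateral hemisphere 24 h after sham surgery, in 3 KO and 3 WT arrays. A separate set of 7 KO and 8 WT arrays came from hemispheres of naive mice, which had no surgery, and was normalized apart, so its values were never set against the surgery arrays. The labels number the arrays and do not say whether each is a separate animal, so the p-values speak only of differences beyond array-to-array spread, which may be technical. The labels describe the KO mice as beta2 adrenergic receptor knockouts and say nothing of a cell type in which the receptor was deleted or of the age of the mice, and the mice were anesthetized with isoflurane before the brains were taken.

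Cells sense oxygen through prolyl hydroxylases, which mark the alpha subunits of HIF for degradation while oxygen is present. When oxygen falls, HIF accumulates, binds hypoxia response elements with the core letters ACGTG or GCGTG, and raises genes for glucose uptake, glycolysis, vessel growth and mitochondrial turnover. Neurons depend on a steady glucose and oxygen supply, and an occluded artery removes both. In whole-hemisphere RNA, fewer cells of a type and less RNA per cell cannot be told apart.

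Promoter sequences from RefSeq (build GRCm38.p6, windows of 300 bases around a gene's start, most of them before it) were found for 9 of the 10 genes, with 13 starts in all, and 11 of the 13 held a core match. Either core, searched on both strands as ACGTG and GCGTG, occurred in 43.8% of all 32851 promoters of this length, so a match is common. At least 4 matches were held by 3.86% of them. The promoters of Hk2 and Adm are shown because these genes gave the largest called changes after MCAO, Ldha because it had the most matches among the members (7, of which 2 pairs overlap in the palindrome CACGTG), and Pgk1 because 2 of its 3 probe sets rose in KO mice. Capitals mark the matches, and each line runs 5′ to 3′ on the gene's own strand. The Hk2 window is chr6:82774405-82774704 on the minus strand, Adm is chr7:110627407-110627706 on the plus strand, Ldha is chr7:46845554-46845853 on the plus strand and Pgk1 is chrX:106186850-106187149 on the plus strand. A match describes letters in a window and is neither a binding site nor a cause.
Hk2: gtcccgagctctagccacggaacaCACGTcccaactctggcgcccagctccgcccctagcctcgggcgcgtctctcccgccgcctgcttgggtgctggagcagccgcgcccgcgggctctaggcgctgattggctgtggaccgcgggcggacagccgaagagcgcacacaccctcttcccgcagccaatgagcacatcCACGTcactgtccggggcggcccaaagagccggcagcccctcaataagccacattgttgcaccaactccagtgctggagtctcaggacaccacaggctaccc
Adm: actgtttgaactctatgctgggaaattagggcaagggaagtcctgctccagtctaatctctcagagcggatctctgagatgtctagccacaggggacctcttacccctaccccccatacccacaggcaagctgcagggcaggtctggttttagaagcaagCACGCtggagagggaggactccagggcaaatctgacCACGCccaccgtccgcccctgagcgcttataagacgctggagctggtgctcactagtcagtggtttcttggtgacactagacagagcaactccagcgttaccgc
Ldha: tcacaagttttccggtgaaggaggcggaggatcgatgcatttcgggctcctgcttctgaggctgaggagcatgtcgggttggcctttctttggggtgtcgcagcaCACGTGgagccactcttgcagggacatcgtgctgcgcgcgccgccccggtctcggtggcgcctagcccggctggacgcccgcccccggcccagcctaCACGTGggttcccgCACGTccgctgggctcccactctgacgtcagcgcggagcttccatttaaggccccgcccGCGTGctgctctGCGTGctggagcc
Pgk1: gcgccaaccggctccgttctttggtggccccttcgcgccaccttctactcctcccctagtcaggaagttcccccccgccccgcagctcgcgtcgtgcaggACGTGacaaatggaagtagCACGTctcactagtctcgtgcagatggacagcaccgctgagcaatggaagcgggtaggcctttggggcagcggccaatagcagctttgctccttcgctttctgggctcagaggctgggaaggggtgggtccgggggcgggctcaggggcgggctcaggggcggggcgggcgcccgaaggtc

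Hk2 and Pgk1 held 2 ACGTG matches each and Adm held 2 GCGTG matches, while Hk2 and Pgk1 held no GCGTG and Adm no ACGTG. Ldha, with 5 ACGTG and 2 GCGTG matches, and Bnip3, with 5 matches of which 1 pair overlaps, were the densest members. Neither Ldha nor Bnip3 was called in any surgery comparison, and Hk2 was called in both genotypes after MCAO. Whether the number of matches goes with the calls was not tested.

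Values are log2 RMA signals, and a change is a difference of log2 means with limma's standard error (SE). Adjusted p-values are Benjamini-Hochberg values computed across the 45037 probe sets together, and a probe set counts as called where its value is under 0.05. Main probe set means the one of each gene with the highest mean over the surgery arrays. Probe set names ending in _x_at or _s_at can also bind transcripts of other genes, and those ending in _a_at bind several transcripts of 1 gene. Levels of different probe sets are not comparable with each other.

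Some arrays stood apart from their groups. On the first component of the KO MCAO arrays, which held 36.9% of their variance, arrays 2, 4 and 5 scored 41.8, 15.2 and 55.5, and the other arrays lay between -29.7 and -26. WT MCAO array 4 scored 71.7 against -21.6 to 7.7 for the rest of its group. The difference between 3 prime and 5 prime actin control probe sets, a sign of RNA degradation, was 0.426 to 1.751 in KO MCAO, 1.603 to 1.759 in KO sham, 0.387 to 1.7 in WT MCAO and 0.863 to 1.013 in WT sham arrays. In the naive set WT array 6 had an actin difference of 4.88, where the KO naive arrays had 0.458 to 0.823 and the other WT naive arrays 0.282 to 0.722, and its median correlation with its own group was 0.8175. The summed signal of 8 neuron marker genes on the log2 scale lay between 15.2 and 15.71 in the surgery arrays. In the naive arrays it lay between 15.73 and 16.1. The sets were normalized apart, so these ranges cannot be compared with each other. No other tissue was measured beside them, so the sums are descriptions and do not test the labelled tissue.

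Hk2 was the member with the largest called change after MCAO, and it rose in both genotypes. It codes for hexokinase 2, which phosphorylates glucose in the first step of glycolysis and sits on the outer mitochondrial membrane. Adm rose in WT mice, at both of its probe sets. In KO mice the main Pfkfb3 probe set, but not the other, and 2 of 3 Pgk1 probe sets rose as well, by smaller amounts. Of the remaining main probe sets, those of Vegfa, Egln3, Bnip3, Slc2a3, Ldha and Pdk1 passed the test in neither genotype. Called falls came from further probe sets. They were Vegfa 1451959_a_at (-0.59) and Pdk1 1423748_at (-0.31) in KO mice and Pdk1 1423747_a_at (-0.68) in WT mice. For none of the 10 main probe sets was the difference of the MCAO changes between genotypes called.

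**Figure D1:**
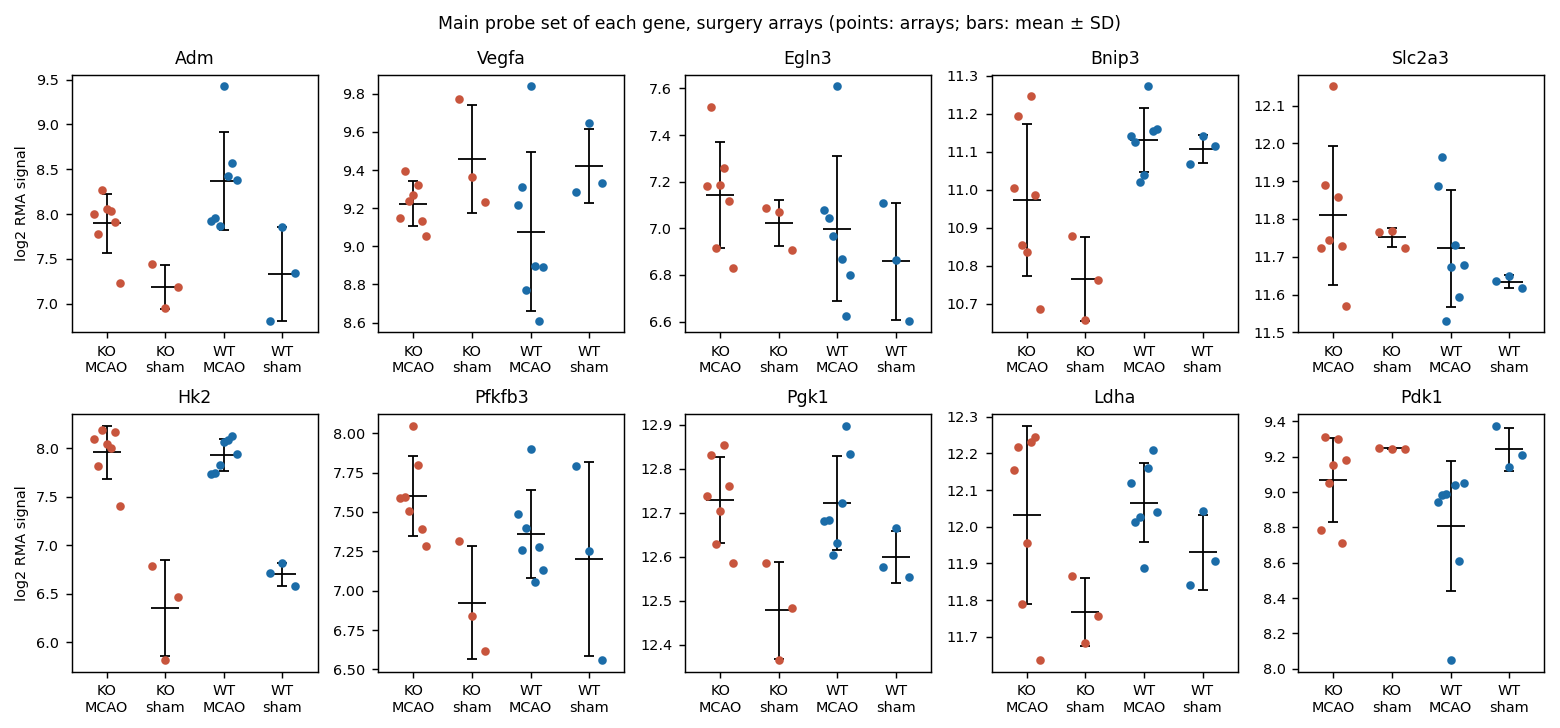
Log2 RMA signal (y axis) of the main probe set of each gene in the 20 surgery arrays, by group on the x axis (KO MCAO n = 7, KO sham n = 3, WT MCAO n = 7, WT sham n = 3). Points are arrays and bars are mean ± SD. For Hk2 every MCAO array lies above every sham array of its genotype, with KO MCAO arrays from 7.40 to 8.20 and KO sham arrays from 5.82 to 6.79, while the groups of Vegfa, Egln3 and Slc2a3 overlap.

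In KO mice 6 of 22 probe sets were called after MCAO (27.3%), against 18.7% of all probe sets; 4 were higher and 2 lower, against 10.8% and 7.94% of all. In WT mice 4 of 22 were called (18.2%), against 10.7% of all; 3 were higher and 1 lower, against 5.11% and 5.59%. The median change over the members was 0.19 in KO mice, where that over all probe sets was -0.06, and 0.05 in WT mice, where that over all was 0.03. In KO mice 14 of the 22 changes were above 0 and in WT mice 13 of 22 were. As 1 probe set per gene, 3 of 10 genes were called in KO mice and 2 of 10 in WT mice, all higher, against 22.5% and 13.7% of all genes called and 14.9% and 7.41% called higher.

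**Figure D2:**
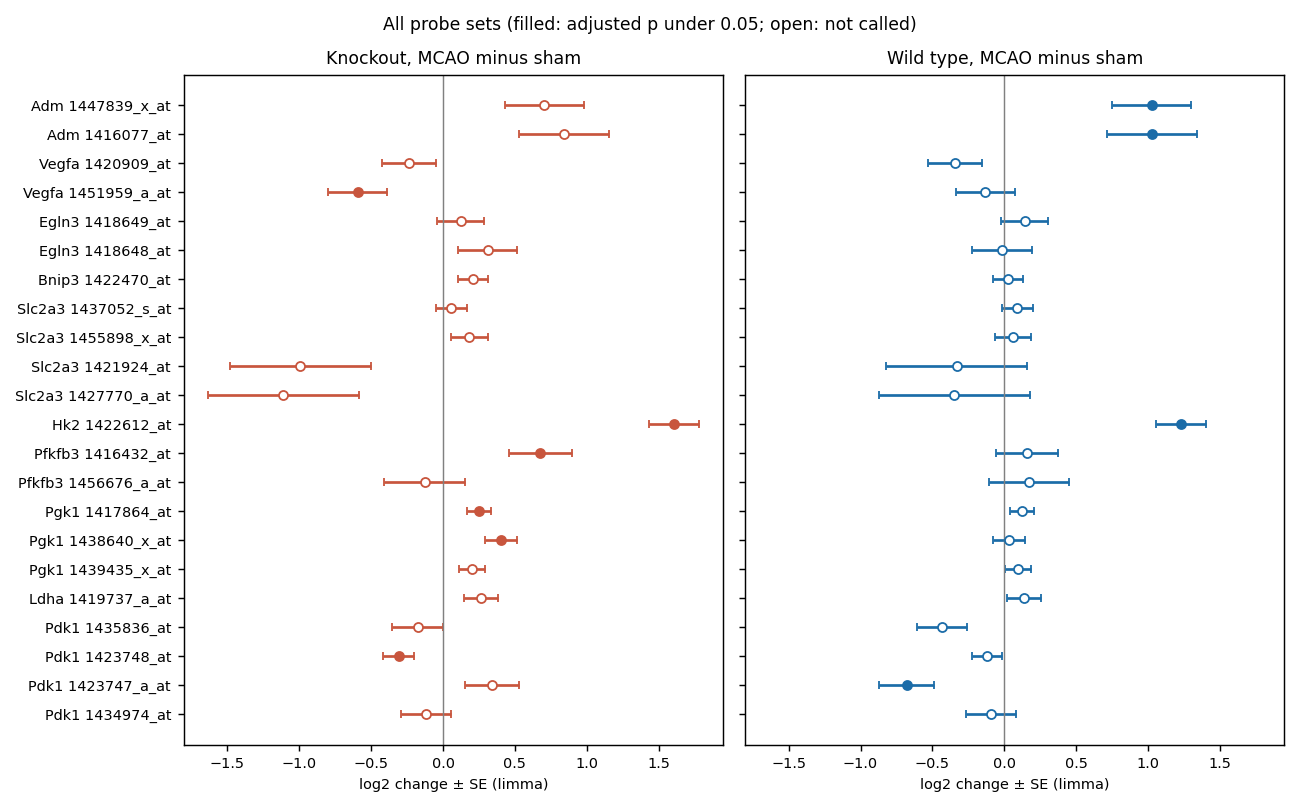
Log2 change of MCAO minus sham (x axis, point ± SE from limma) for all 22 probe sets (y axis), in KO mice at left and in WT mice at right, on the same scale. Filled points were called at an adjusted p under 0.05. Hk2 lies at 1.61 in KO and 1.23 in WT mice, Adm at 0.71 and 0.84 in KO and at 1.03 for each probe set in WT mice, and beyond 0.5 from 0 also lie Pfkfb3 1416432_at (0.68), Vegfa 1451959_a_at (-0.59) and 2 Slc2a3 probe sets with wide errors in KO mice and Pdk1 1423747_a_at (-0.68) in WT mice.

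Adrenomedullin, the product of Adm, is a secreted vasodilator peptide that HIF induces. At the main probe set (1447839_x_at) the 7 KO MCAO arrays had 8.00, 7.78, 8.27, 8.06, 8.03, 7.92 and 7.23, and the 3 KO sham arrays had 7.44, 6.95 and 7.18. The 7 WT MCAO arrays had 7.92, 7.96, 7.86, 9.43, 8.42, 8.57 and 8.38, and the 3 WT sham arrays had 6.81, 7.86 and 7.34. WT MCAO and WT sham arrays did not overlap, though the lowest MCAO and the highest sham value nearly met, and KO MCAO array 7 lay inside the KO sham range. WT MCAO array 4, which stood apart, had the highest value of all.

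The Adm change was 0.71 in KO mice (SE 0.28, adjusted p = 0.0758) and 1.03 in WT mice (SE 0.28, adjusted p = 0.0198). The second probe set (1416077_at) differed by 0.84 in KO mice (SE 0.32, adjusted p = 0.0654) and by 1.03 in WT mice (SE 0.32, adjusted p = 0.0408). The WT call at the main Adm probe set was lost without WT sham array 1 (0.765, adjusted p = 0.164) or 3 (1.03, adjusted p = 0.0714), and that of the second without WT sham array 1 (0.86, adjusted p = 0.195) or 3 (0.90, adjusted p = 0.166) or WT MCAO array 5, 6 or 7 (adjusted p = 0.0562, 0.06 and 0.0509). Without KO MCAO array 7 both Adm probe sets were called in KO mice (0.82, adjusted p = 0.0355, and 0.955, adjusted p = 0.0359). Both were also called in KO mice with the actin covariate, with larger changes (1.09, adjusted p = 0.0129, and 1.26, adjusted p = 0.0147), and in a fit to the compared arrays alone (adjusted p = 0.0289 and 0.0452), where the second probe set was not called in WT mice (adjusted p = 0.0559). The MCAO change in KO mice minus that in WT mice was -0.32 (SE 0.39), which did not pass the test (adjusted p = 0.602).

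Vegfa codes for vascular endothelial growth factor A, the main HIF-induced signal for vessel growth. At its main probe set (1420909_at) the KO MCAO arrays ran from 9.05 over a median of 9.24 to 9.39, and the KO sham arrays had 9.78, 9.37 and 9.23. The WT MCAO arrays ran from 8.61 over a median of 8.90 to 9.84, and the WT sham arrays had 9.29, 9.65 and 9.33. The groups overlapped in both genotypes, and the means lay lower after MCAO, by -0.23 in KO mice (SE 0.19, adjusted p = 0.385) and -0.34 in WT mice (SE 0.19, adjusted p = 0.253). WT MCAO array 4 held the highest value of its group, and without it the WT change was called (-0.47, adjusted p = 0.0432).

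The second Vegfa probe set (1451959_a_at) fell by 0.59 in KO mice (SE 0.21, adjusted p = 0.0487), with 7.90, 7.12, 7.88, 7.18, 7.18, 7.80 and 7.90 in the MCAO arrays and 8.47, 8.16 and 7.84 in the sham arrays. Arrays 2, 4 and 5 formed the low end, and the other MCAO arrays overlapped with sham array 3. The call was lost without KO MCAO array 2, 4 or 5 or without KO sham array 1, 2 or 3, with changes between -0.75 and -0.43 and adjusted p up to 0.218. The call was also lost without the MCAO arrays that stood apart (-0.29, adjusted p = 0.163), with the actin covariate (-0.41, adjusted p = 0.277), with arrays centred (-0.55, adjusted p = 0.0589) and in a fit to the compared arrays alone (adjusted p = 0.0829).

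Egln3 codes for a HIF prolyl hydroxylase that HIF itself induces, as a feedback on oxygen sensing. Its main probe set (1418649_at) ran from 6.83 over a median of 7.18 to 7.52 in KO MCAO arrays and had 7.09, 7.07 and 6.91 in KO sham arrays. It ran from 6.62 over a median of 6.97 to 7.61 in WT MCAO arrays and had 7.11, 6.86 and 6.60 in WT sham arrays. MCAO and sham arrays overlapped in both genotypes, with changes of 0.12 in KO mice (SE 0.17, adjusted p = 0.627) and 0.14 in WT mice (SE 0.17, adjusted p = 0.621). The other Egln3 probe set (1418648_at) changed by 0.31 in KO mice (adjusted p = 0.297) and -0.02 in WT mice (adjusted p = 0.969).

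Bnip3 codes for an outer mitochondrial membrane protein that marks mitochondria for autophagy. Its values ran from 10.69 over 10.99 to 11.25 in KO MCAO arrays and were 10.88, 10.66 and 10.76 in KO sham arrays. They ran from 11.02 over 11.14 to 11.27 in WT MCAO arrays and were 11.07, 11.14 and 11.12 in WT sham arrays. The groups overlapped, with changes of 0.21 in KO mice (SE 0.10, adjusted p = 0.165) and 0.02 in WT mice (SE 0.10, adjusted p = 0.912). Every KO sham array lay below every WT sham array, and that difference of -0.34 (SE 0.12) did not pass the test (adjusted p = 0.102).

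Slc2a3 codes for GLUT3, the main glucose transporter of neurons. Its main probe set (1437052_s_at) ran from 11.57 over 11.74 to 12.15 in KO MCAO arrays and had 11.77, 11.77 and 11.72 in KO sham arrays. It ran from 11.53 over 11.68 to 11.97 in WT MCAO arrays and had 11.64, 11.65 and 11.62 in WT sham arrays. The sham arrays of each genotype lay within the MCAO range, and the changes were 0.06 in KO mice (SE 0.11, adjusted p = 0.733) and 0.09 in WT mice (SE 0.11, adjusted p = 0.634). The other 3 Slc2a3 probe sets were not called in either genotype.

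Those Slc2a3 probe sets did not follow each other across the KO MCAO arrays. Probe set 1421924_at had 6.34, 7.11 and 5.26 in arrays 2, 4 and 5 and 8.20 to 8.53 in the other arrays, and probe set 1427770_a_at had 4.58, 5.05 and 3.81 in arrays 2, 4 and 5 and 6.80 to 7.04 in the others. In the same arrays 1455898_x_at was the highest of its group, at 10.16, 10.58 and 10.23 against 9.85 to 10.01. The second probe set of Pfkfb3 (1456676_a_at) was also low there, at 4.89, 5.56 and 4.98 against 6.08 to 6.46, and so was Vegfa 1451959_a_at, while the main probe sets of both genes were not. These are the arrays with positive scores on the first component of their group. Their actin differences were 1.149, 0.675 and 0.993, inside the range of the other KO MCAO arrays (0.426 to 1.751), and the part of RNA quality in these values was not tested.

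**Figure D3:**
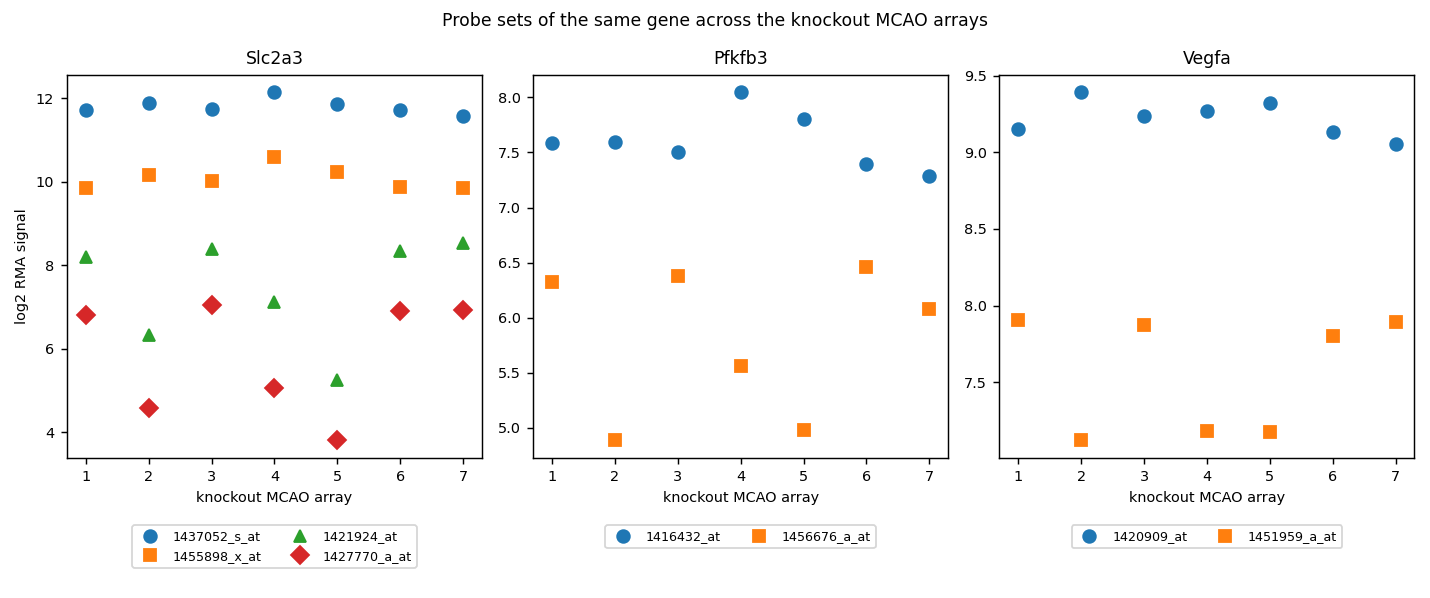
Log2 RMA signal (y axis) of each probe set of Slc2a3, Pfkfb3 and Vegfa in the 7 KO MCAO arrays (x axis, array number, which carries no order). Markers distinguish probe sets of the same gene. Slc2a3 1421924_at and 1427770_a_at, Pfkfb3 1456676_a_at and Vegfa 1451959_a_at are low in arrays 2, 4 and 5, where the main probe sets of these genes are not low.

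Hk2 was the clearest member. In KO MCAO arrays 1 to 7 it had 8.09, 7.82, 8.20, 8.04, 8.01, 8.17 and 7.40, and in the KO sham arrays 6.79, 5.82 and 6.47. In WT MCAO arrays 1 to 7 it had 7.74, 7.75, 7.83, 8.07, 8.09, 8.13 and 7.95, and in the WT sham arrays 6.71, 6.82 and 6.58. No MCAO array overlapped with a sham array of its genotype, and KO MCAO array 7 was the lowest MCAO value.

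Hk2 rose by 1.61 in KO mice (SE 0.17, adjusted p = 4.91e-06), which is 3.04-fold, and by 1.23 in WT mice (SE 0.17, adjusted p = 0.000129), which is 2.34-fold. Both calls were made under all 20 alternatives run, with changes from 1.34 to 1.82 in KO mice and 1.17 to 1.29 in WT mice, and adjusted p up to 0.00129 and 0.00209. The MCAO change was 0.38 larger in KO mice (SE 0.25), which did not pass the test of the difference (adjusted p = 0.311). After MCAO the 2 genotypes were close in Hk2, at means of 7.96 ± 0.28 in KO and 7.93 ± 0.17 in WT mice (SD, n = 7 each), a difference of 0.03 (SE 0.13, adjusted p = 0.925).

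Pfkfb3 codes for the bifunctional enzyme that makes fructose 2,6-bisphosphate, the strongest activator of phosphofructokinase. Its main probe set (1416432_at) had 7.59, 7.60, 7.51, 8.05, 7.80, 7.39 and 7.28 in KO MCAO arrays and 7.32, 6.84 and 6.62 in KO sham arrays, so only MCAO array 7 reached the sham range. It ran from 7.06 over 7.28 to 7.90 in WT MCAO arrays and had 7.79, 7.25 and 6.56 in WT sham arrays, which overlapped. This main probe set rose by 0.68 in KO mice (SE 0.22, adjusted p = 0.0347), and its WT change was 0.16 (SE 0.22, adjusted p = 0.677).

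The difference between these Pfkfb3 changes, 0.52 (SE 0.31), was not called (adjusted p = 0.264). The KO call was lost without KO MCAO array 4 (0.60, adjusted p = 0.0594) or 5 (0.645, adjusted p = 0.0555) and without KO sham array 2 (0.635, adjusted p = 0.126) or 3 (0.52, adjusted p = 0.204). It was also lost with the actin covariate (0.73, adjusted p = 0.0729) and without the MCAO arrays that stood apart (0.52, adjusted p = 0.106). The mean of both Pfkfb3 probe sets was not called either (0.275, adjusted p = 0.261), since 1456676_a_at changed by -0.13 (SE 0.28, adjusted p = 0.773).

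Pgk1 codes for phosphoglycerate kinase 1, which makes ATP in the second phase of glycolysis. Its main probe set (1417864_at) had 12.74, 12.83, 12.63, 12.71, 12.86, 12.76 and 12.59 in KO MCAO arrays and 12.59, 12.37 and 12.48 in KO sham arrays. It ran from 12.60 over 12.68 to 12.90 in WT MCAO arrays and had 12.58, 12.67 and 12.55 in WT sham arrays. All KO MCAO arrays lay above all KO sham arrays, though the closest values, both 12.59 after rounding, nearly met, and the WT groups overlapped.

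The Pgk1 gain in KO mice was 0.25 (SE 0.09, adjusted p = 0.046), or 1.19-fold, and it was called also at 1438640_x_at (0.40, SE 0.11, adjusted p = 0.0171), while 1439435_x_at changed by 0.20 (adjusted p = 0.122). In WT mice the 3 probe sets changed by 0.12, 0.03 and 0.09, with no call. The main call was lost without KO MCAO array 1, 2, 4, 5 or 6 or without KO sham array 2 or 3, with changes down to 0.19 and adjusted p up to 0.217, and that of 1438640_x_at without KO sham array 2 (0.37, adjusted p = 0.0897) or 3 (0.30, adjusted p = 0.151). Without the MCAO arrays that stood apart neither was called (0.20, adjusted p = 0.152, and 0.375, adjusted p = 0.0546), and the main call was also lost with the actin covariate (0.30, adjusted p = 0.05 after rounding) and in a fit to the compared arrays alone (adjusted p = 0.0713). The difference between genotypes was not called at any of the 3 (adjusted p from 0.132 to 0.601).

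Ldha codes for the lactate dehydrogenase subunit that favours making lactate from pyruvate. It ran from 11.64 over 12.16 to 12.25 in KO MCAO arrays and had 11.87, 11.68 and 11.76 in KO sham arrays. It ran from 11.89 over 12.04 to 12.21 in WT MCAO arrays and had 11.84, 12.04 and 11.91 in WT sham arrays. MCAO and sham arrays overlapped, with changes of 0.26 in KO mice (SE 0.12, adjusted p = 0.124) and 0.14 in WT mice (SE 0.12, adjusted p = 0.496). KO MCAO array 7 was the lowest of its group, and without it the KO change was called (0.33, adjusted p = 0.0346).

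Pdk1 codes for a pyruvate dehydrogenase kinase, which blocks the entry of pyruvate into the citric acid cycle. Its main probe set (1435836_at) ran from 8.71 over 9.15 to 9.31 in KO MCAO arrays and had 9.25, 9.25 and 9.25 in KO sham arrays. It ran from 8.05 over 8.98 to 9.05 in WT MCAO arrays and had 9.38, 9.14 and 9.21 in WT sham arrays. In KO mice the groups overlapped, with a change of -0.18 (SE 0.18, adjusted p = 0.492). Every WT MCAO array lay below every WT sham array, although the change of -0.43 (SE 0.18) did not pass the test (adjusted p = 0.121). It was called with the actin covariate (-0.46, adjusted p = 0.0267), and so was the mean of the 4 Pdk1 probe sets (-0.33, adjusted p = 0.0364).

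The further Pdk1 probe sets disagreed. Probe set 1423747_a_at had 5.67, 6.03, 6.32, 6.39, 5.98, 5.71 and 6.06 in KO MCAO arrays and 5.85, 5.72 and 5.48 in KO sham arrays. It had 5.74, 5.90, 6.01, 5.20, 6.07, 5.42 and 6.21 in WT MCAO arrays and 6.67, 6.33 and 6.42 in WT sham arrays. The WT sham arrays lay above all other surgery arrays but KO MCAO array 4, which lay inside their range. Its change was 0.34 in KO mice (SE 0.19, adjusted p = 0.205), and it fell by 0.68 in WT mice (SE 0.19, adjusted p = 0.0242). Probe set 1423748_at fell by 0.31 in KO mice (SE 0.11, adjusted p = 0.0491), with KO MCAO arrays from 7.50 to 7.72 below KO sham arrays from 7.90 to 8.01, and changed by -0.12 in WT mice (adjusted p = 0.499). The remaining probe set, 1434974_at, was not called in either genotype.

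The WT call of 1423747_a_at was lost without WT sham array 1, 2 or 3 (adjusted p = 0.137, 0.0507 and 0.0716). The KO call of 1423748_at was lost without KO MCAO array 2, 3, 4, 5 or 6 or any KO sham array, with changes between -0.33 and -0.27 and adjusted p up to 0.191. It was also lost with the actin covariate (adjusted p = 0.0696), without the MCAO arrays that stood apart (adjusted p = 0.0805), with arrays centred (adjusted p = 0.0883) and with a robust prior (adjusted p = 0.0692). Of all members, only Pdk1 probe sets carried a called coefficient for the actin difference when it was added to the fit: -0.45 per unit at 1435836_at (adjusted p = 0.0324) and -0.46 at 1423747_a_at (adjusted p = 0.0447), where 5.74% of all probe sets had a called coefficient.

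The question of whether the receptor changes the response to ischemia was put to the difference of the MCAO changes between genotypes. It was called for 1 of 22 member probe sets (4.55%), against 7.41% of all probe sets, with 3.1% of all higher and 4.31% lower. That was Pdk1 1423747_a_at, at 1.02 (SE 0.27, adjusted p = 0.0312), and it was not called without KO sham array 2 or 3 or any WT sham array (0.92 to 1.09, adjusted p from 0.0524 to 0.114), or with the actin covariate (0.75, adjusted p = 0.102). None of the 10 main probe sets passed. The actin differences of the KO sham arrays (1.603 to 1.759) and WT sham arrays (0.863 to 1.013) did not overlap.

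Knockout was then set against wild type within each surgery. After MCAO 0 of 22 member probe sets were called by limma, where 0.131% of all were (0.0733% higher and 0.0577% lower), and 2 had an unadjusted p under 0.05: Adm 1447839_x_at, at -0.47 (adjusted p = 0.28), and Egln3 1418648_at, at 0.36 (adjusted p = 0.272). After sham 1 of 22 was called (4.55%), where 4.67% of all were (2.58% higher and 2.1% lower). This was again Pdk1 1423747_a_at, which was lower in KO sham arrays (-0.79, SE 0.22, adjusted p = 0.0462), with no overlap between the genotypes. It was not called without any single sham array (adjusted p from 0.0511 to 0.21) or with the actin covariate (-0.45, adjusted p = 0.327).

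In naive mice the KO values of Vegfa and Pfkfb3 were higher, each at the main probe set, which made 2 of 22 member probe sets called (9.09%), where 20.1% of all were; 8.02% of all probe sets were higher and 12.1% lower. Vegfa 1420909_at had 9.70, 9.62, 9.63, 9.59, 9.53, 9.31 and 9.58 in KO naive arrays and 9.26, 9.21, 8.88, 9.10, 8.71, 9.26, 8.97 and 8.91 in WT naive arrays. Every KO array lay above every WT array, and Vegfa was higher by 0.53 (SE 0.09, adjusted p = 0.001), or 1.44-fold. This call was made under all 25 alternatives run (0.33 to 0.59, adjusted p up to 0.0166). The other Vegfa probe set differed by 0.13 (SE 0.16, adjusted p = 0.614).

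Pfkfb3 1416432_at had 7.93, 7.93, 7.89, 8.00, 7.55, 7.69 and 7.69 in KO naive arrays and 7.48, 7.50, 7.60, 7.42, 7.09, 6.41, 7.34 and 7.32 in WT naive arrays. KO array 5 lay inside the WT range and the other KO arrays above it. This probe set was higher in KO mice by 0.54 (SE 0.15, adjusted p = 0.0175), and without WT naive array 6 by 0.42 (adjusted p = 0.00112). It was no longer called when each array was centred on its median (0.395, adjusted p = 0.0723) or when dim probe sets were left out (adjusted p = 0.0585). The other Pfkfb3 probe set (1456676_a_at) differed by 0.17 (SE 0.12, adjusted p = 0.36), and without WT naive array 6 by 0.125 (adjusted p = 0.395).

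WT naive array 6 decided how many members were called in naive mice. It was the lowest WT naive array for Ldha, with 9.50 against 11.78 to 12.04 in the others, for Pgk1 1417864_at, with 11.72 against 12.96 to 13.15, and for the main probe set of Pdk1, with 8.80 against 9.52 to 9.62. It was the highest for Hk2, with 7.69 against 6.60 to 7.07. Without it 10 of 22 probe sets were called (45.5%), all higher in KO mice, where 39.8% of all probe sets were called, 10658 of them higher and 7261 lower. This direction depended on scaling: with each array also centred on its median 7 were called, of which Vegfa 1420909_at (0.41) and Pfkfb3 1416432_at (0.27) were higher and Adm 1447839_x_at (-0.45), Bnip3 (-0.33), Pdk1 1434974_at (-0.29), Pgk1 1439435_x_at (-0.20) and Pgk1 1417864_at (-0.23) were lower. Among the 10 called without centring, Hk2 differed by 0.31 (adjusted p = 0.00323), Egln3 by 0.315 at 1418649_at (adjusted p = 0.0199) and 0.30 at 1418648_at (adjusted p = 0.00282), Ldha by 0.17 (adjusted p = 0.0284) and Pdk1 by 0.16 at 1435836_at (adjusted p = 0.0127). Adm 1416077_at was also among them (0.29, adjusted p = 0.018), while Adm 1447839_x_at went the opposite way without a call (-0.29, adjusted p = 0.0738). Pdk1 1434974_at, lower with centring, had low signals, with means of 4.14 in KO and 4.31 in WT naive arrays.

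**Figure D4:**
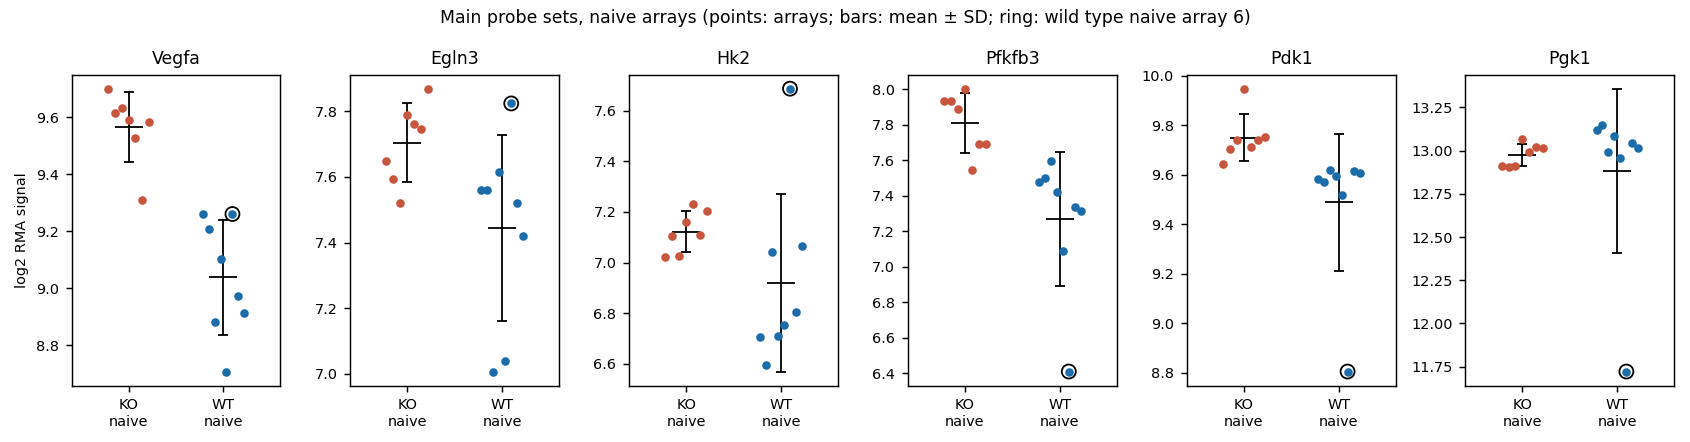
Log2 RMA signal (y axis) of 6 main probe sets in the naive arrays (x axis, KO n = 7, WT n = 8). Points are arrays, bars are mean ± SD, and the ring marks WT naive array 6. KO and WT arrays of Vegfa do not overlap, with the lowest KO array at 9.31 and the highest WT array at 9.26, and the ringed array lies far from its group for Hk2, Pfkfb3, Pdk1 and Pgk1.

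The naive genotypes also differed as whole arrays. Array medians lay between 7.024 and 7.049 in KO and between 6.87 and 6.936 in WT naive arrays, without overlap. The highest share of probe sets with exactly equal values that an array had with another array of its group was 5.13% to 6.39% over the KO naive arrays and 0.0244% to 0.107% over the WT naive arrays. The sources used here do not say that both genotypes were normalized together, and normalization and genotype cannot be told apart. With each array centred on its median 5 member probe sets were called: Vegfa 1420909_at was higher, and Adm 1447839_x_at (-0.57), Bnip3 (-0.37), Pdk1 1434974_at (-0.32) and Pgk1 1439435_x_at (-0.26) were lower.

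Other genes of the pathway were read from lists, at 1 probe set per gene, where 22.5% of all genes were called after MCAO in KO mice and 13.7% in WT mice. Of 13 measured other HIF targets 4 rose and 2 fell in each genotype. Hmox1, the heme-degrading enzyme heme oxygenase 1, rose by 3.38 in KO and 3.38 in WT mice (SE 0.36, adjusted p = 4.37e-06 and 7.67e-06), and Edn1, the vasoconstrictor endothelin 1, by 1.31 (adjusted p = 0.00808) and 1.76 (adjusted p = 0.00145). Ddit4, a stress-induced inhibitor of mTOR, rose by 0.56 and 0.80, and Ankrd37 fell by 0.60 and 0.63. Higd1a (0.47) rose and Car9, the hypoxia marker carbonic anhydrase 9, fell (-0.45) in KO mice, and Hilpda (0.77) rose and P4ha1 (-0.71), a collagen prolyl hydroxylase subunit, fell in WT mice. The MCAO change of Car9 in KO mice minus that in WT mice was -0.86 (SE 0.20, adjusted p = 0.0215), the only such call in the 5 pathway lists. Over all probe sets 7.41% had such a call, 3336 in number. With the actin covariate 57 had one, and at an adjusted p under 0.01 there were 0. The Car9 call was not followed through these alternatives.

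Few further glycolysis enzymes changed. Of 12 measured, Pfkp rose in KO mice (0.33, adjusted p = 0.0226) and Hk3 in WT mice (0.39, adjusted p = 0.0259), and none fell in either genotype. Among 13 regulators and transporters 3 rose in KO mice, and 2 rose and 2 fell in WT mice. Pdk4, another pyruvate dehydrogenase kinase, rose by 1.21 in KO (adjusted p = 0.000464) and 1.12 in WT mice (adjusted p = 0.00145), and the monocarboxylate transporter gene Slc16a1 by 1.08 (adjusted p = 1.48e-05) and 0.65 (adjusted p = 0.00266). Slc2a1, which codes for the blood-brain barrier glucose transporter GLUT1, rose in KO mice (1.13, adjusted p = 0.00679). In WT mice Pdp1, a pyruvate dehydrogenase phosphatase, fell by 1.16 and the neuronal lactate transporter gene Slc16a7 by 0.77.

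Of 10 oxygen sensing genes 2 rose in KO mice, and 2 rose and 1 fell in WT mice. Epas1, which codes for HIF-2 alpha, rose by 0.53 in KO (adjusted p = 0.011) and 0.46 in WT mice (adjusted p = 0.0336). Hif1a rose in KO mice (0.72, adjusted p = 0.00211), and Hif3a rose (0.57) and Arnt2 fell (-0.37) in WT mice. Of 11 receptors, ligands and partners of VEGF and adrenomedullin 2 rose and 3 fell in KO mice, and 1 rose and 1 fell in WT mice. Calcrl, the adrenomedullin receptor, rose with its partner Ramp2 in KO mice (0.58 and 0.54), whereas Ramp3 fell in KO mice (-0.88) and Ramp1 fell in KO (-0.67) and WT mice (-0.71). In naive mice 2 of 13 regulators and transporters, 2 of 10 oxygen sensing genes and 1 of 11 VEGF and adrenomedullin genes were called. None of the 12 glycolysis enzymes and 13 other HIF targets was. By comparison, 16.3% of all genes were called in either direction. All calls of the lists were higher in KO. KO naive array medians (7.024 to 7.049) all lay above those of WT naive arrays (6.87 to 6.936), and the lists were not refitted with arrays centred. Nor were they refitted without WT naive array 6. Leaving that array out took the calls over all probe sets from 9046 to 17919, so the list counts hold only with it kept. Called in the lists were Kdr, the main endothelial VEGF receptor (0.48, adjusted p = 0.000377), and Arnt, the shared partner of the HIF alpha subunits (0.44, adjusted p = 0.00159). Hif1an, which codes for the asparaginyl hydroxylase of HIF (0.35, adjusted p = 0.0039), Hkdc1 (0.42, adjusted p = 0.00218) and Pfkfb4 (0.45, adjusted p = 0.0154) were called too.

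**Figure D5:**
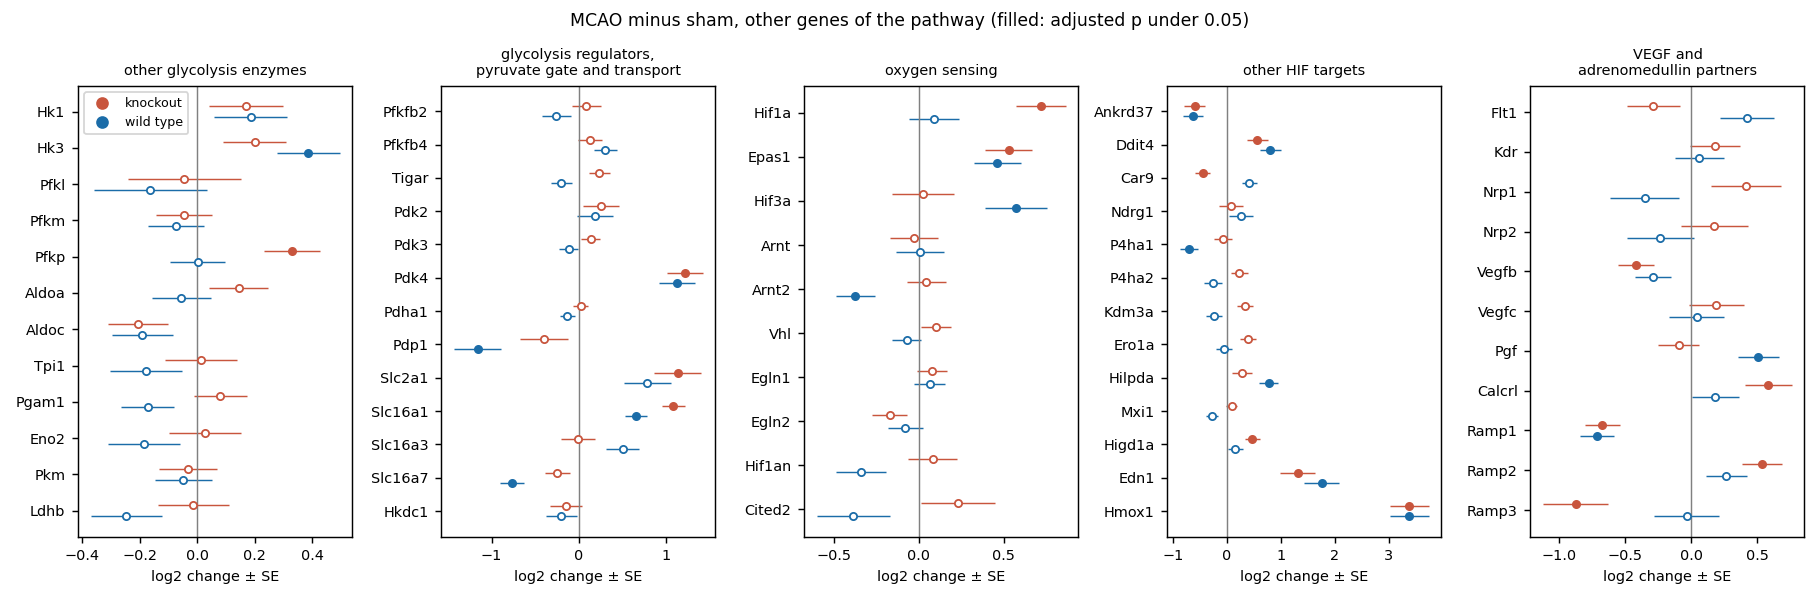
Log2 change of MCAO minus sham (x axis, point ± SE from limma; the scale differs between panels) for the other genes of the pathway (y axis), in 5 lists, with KO mice above WT mice for each gene. Filled points were called at an adjusted p under 0.05. Hmox1 lies at 3.38 in both genotypes, Pdk4 and Slc16a1 are filled in both, and of the other glycolysis enzymes Pfkp in KO mice and Hk3 in WT mice alone are filled.

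Cell type markers were counted at 1 probe set per gene, where 22.5% of all genes were called after MCAO in KO mice and 13.7% in WT mice. Of 8 endothelial genes 4 rose in KO mice and 3 in WT mice. The log2 of their summed linear signals was 11.3 to 12.09 in KO MCAO, 11.29 to 11.51 in KO sham, 11.56 to 12.64 in WT MCAO and 11.45 to 11.61 in WT sham arrays. Of 7 neutrophil and monocyte genes 2 rose and 1 fell in KO mice, and 2 rose in WT mice, with sums of 8.46 to 10.22 in KO MCAO, 8.58 to 8.71 in KO sham, 10.1 to 12.13 in WT MCAO and 8.43 to 8.47 in WT sham arrays. Of 7 microglial genes 2 fell in each genotype, with P2ry12 changes of -1.62 in KO and -2.71 in WT mice. The median change over these 7 genes was 0.085 in KO and -0.288 in WT mice. Of 8 neuronal genes 1 fell in KO and 2 in WT mice, and 2 of 8 astrocyte genes rose in each. Of 6 oligodendrocyte genes 2 rose in KO and 3 in WT mice, of 6 meningeal and fibroblast genes 2 rose in KO and 1 in WT mice, and none of 3 erythrocyte and 5 choroid plexus genes was called in either. In naive mice 5 of the 7 neutrophil and monocyte genes and 1 of the 3 erythrocyte genes were lower in KO, and 1 endothelial, 1 microglial and 1 meningeal and fibroblast gene were higher. WT naive array 6 was kept in that fit, and the markers were not refitted without it. The MCAO change in KO mice minus that in WT mice was called lower for 2 neutrophil and monocyte genes, Mpo (-0.93, adjusted p = 0.046) and Itgal (-0.59, adjusted p = 0.0449). These 2 calls were not followed through the alternatives, and 7.41% of all probe sets had such a call in either direction. The part of these cells in the Hk2 and Adm changes was not tested.

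Across the 20 surgery arrays, after the mean of each of the 4 groups was removed, the members varied together in part. The 2 Adm probe sets correlated at r = 0.9, Pgk1 1417864_at with 1439435_x_at at 0.87, and Slc2a3 1421924_at with 1427770_a_at at 0.97. Between genes, Bnip3 and Ldha correlated at 0.84, and Pfkfb3 1456676_a_at with Slc2a3 1427770_a_at at 0.87, whereas Vegfa 1420909_at and Pdk1 1423748_at went opposite ways at -0.79. All points share the same arrays and so their RNA and hybridization quality, and these values are descriptions.

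By the same measure over 20 arrays, the genes most like each main probe set were Ezr (r = 0.826) and Hmgn1 (0.819) for Hk2, Gna13 (0.897) and Qdpr (0.885) for Adm, and Ypel2 (0.863) and Sbk1 (0.861) for Vegfa. For Egln3 they were Slc9a5 (0.911) and Mapk8 (0.907), for Bnip3 Zfp811 (0.908) and Pgam1 (0.889), and for Slc2a3 Polr2a (0.901) and Vstm4 (0.863). For Pfkfb3 they were Rab11b (0.918) and Mn1 (0.9), for Pgk1 Sgf29 (0.841) and Stx18 (0.836), for Ldha Sema4a (0.908) and Tmem40 (0.896), and for Pdk1 Acp2 (0.97) and Ddb2 (0.963). Pgam1, named here for Bnip3, codes for the glycolysis enzyme phosphoglycerate mutase 1.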

How the data were processed

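Arrays were grouped by the labels into 20 surgery and 15 naive arrays. The authors deposited log2 signals made with RMA, per the submitters' processing notes; its version is not given in the sources used here, and naive arrays were normalized apart, per the labels. Of 45101 rows 64 were controls; of the rest 34945 probe sets had 1 gene symbol, 932 several and 9160 none, and 34741 matched RefSeq by Entrez ID. Limma (version 3.58.1, R 4.3.3) was fitted to all 45037 probe sets, once to the 4 surgery groups and once to the naive groups, with Benjamini-Hochberg adjustment over all of them; the steps were tested on simulated data. The number of arrays limits the precision. The text names every member's main probe set and, per list and comparison, up to 3 called genes by smallest p; further genes and probe sets were named after their values were seen, and the 2 likest genes per member are given. Members and lists were chosen with earlier results of these data known. Arrays of different groups with the same number had correlations of deviations from -0.21 to 0.47. Arrays with unlike numbers were not set beside them, so these values cannot decide whether the numbers pair the arrays. The main fit used no block, and a replicate block was run as an alternative. Alternatives covered a filter on dim probe sets, centring, a stricter threshold, 1 value per gene, a robust prior, RNA quality, only the compared groups, a replicate block and leaving out arrays. Values of the deleted receptor's gene are not given.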

Additional observations from a re-analysis of the deposited data

Results flagged for a closer look

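In 88 combinations of a member probe set and a group of 7 or 8 arrays, 19 held an array far from the others of its group by Dixon's test; chance alone gives about 1 in 20. WT naive array 6 accounted for 13 of the 19, KO naive array 4 for 4, WT MCAO arrays for 2 and KO MCAO arrays for 0. The test sets the most extreme array against its nearest neighbour, so arrays that are low together can go unflagged. KO MCAO arrays 2, 4 and 5 at Slc2a3 1421924_at were such a case.

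WT naive array 6 was low for Ldha (9.503), Pdk1 1435836_at (8.804), Pfkfb3 1416432_at (6.41), Pgk1 1417864_at (11.721), Vegfa 1451959_a_at (7.422) and Slc2a3 1421924_at (5.686), 1427770_a_at (4.65) and 1437052_s_at (11.555). It was high for Hk2 (7.687), Adm 1416077_at (7.923), Egln3 1418648_at (9.056), Pgk1 1439435_x_at (11.519) and Slc2a3 1455898_x_at (11.411). Probe sets of Pgk1 and of Slc2a3 thus lay on opposite sides in 1 array, whose actin difference was 4.88.

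KO naive array 4 was high for Pdk1 1435836_at (9.948) and Slc2a3 1437052_s_at (12.562) and 1455898_x_at (11.129), and low for Slc2a3 1427770_a_at (5.732). WT MCAO array 4 was high for Adm 1416077_at (9.043), and WT MCAO array 6 for Pgk1 1439435_x_at (11.254).

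The MCAO change of Pdk1 1423747_a_at in KO mice minus that in WT mice was 1.021 (limma adjusted p = 0.0312), a difference between genotypes that the other 3 Pdk1 probe sets did not pass.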

How the results depend on the processing

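The calls of Hk2 in both genotypes after MCAO (20 of 20 alternatives each) and of Vegfa 1420909_at in naive mice (25 of 25) were made throughout. Called in fewer were, after MCAO in KO mice, Pgk1 1438640_x_at (14 of 18), Pfkfb3 (12 of 20), Pgk1 1417864_at (8 of 20), Vegfa 1451959_a_at (6 of 18) and Pdk1 1423748_at (5 of 18), and in WT mice Adm (16 of 20 and 10 of 18) and Pdk1 1423747_a_at (12 of 17). Counts of called members were, without dim probe sets, 0 for the difference between genotypes, 0 after sham and 1 in naive mice, where all probe sets gave 1441, 1074 and 934 calls. Pdk1 1423747_a_at, which alone was called for the difference and after sham, was itself dim and left that fit. The counts of 0 therefore do not test its calls. With arrays centred, naive mice gave 5. At an adjusted p under 0.01 the MCAO counts were 1 in KO and 1 in WT mice, the difference and sham 0, and naive 1; over all probe sets these were 3602, 1961, 0, 18 and 4842, and 16 between genotypes after MCAO. With the actin covariate the difference and sham gave 0 and naive 9; over all, MCAO in KO mice gave 4724, the difference 57, sham 3, naive 17439 and genotypes after MCAO 1656. With the replicate block WT mice gave 1 and sham 0 (3207 and 1368 over all): Adm 1447839_x_at was 0.861 (adjusted p = 0.0846), Adm 1416077_at 0.937 (adjusted p = 0.12), Pdk1 1423747_a_at -0.645 (adjusted p = 0.0807) in WT mice and -0.791 (adjusted p = 0.0637) after sham, and in KO mice Pgk1 1417864_at was 0.219 (adjusted p = 0.14) and Vegfa 1451959_a_at -0.627 (adjusted p = 0.0844). With only the compared groups in the fit, 18 and 6052 probe sets were called between genotypes after MCAO and after sham. Leaving out 1 array gave 1 to 9 called members in KO mice, 1 to 5 in WT mice, 0 to 1 for the difference, 0 to 0 after MCAO, 0 to 1 after sham and 2 to 10 in naive mice; over all probe sets, 3715 to 9583, 2438 to 4838, 0 to 5362, 18 to 138, 5 to 2207 and 7153 to 17919, with the lowest KO, difference and sham counts without KO sham array 3 and the lowest WT count without WT sham array 1. Chosen after seeing the data, leaving out the MCAO arrays that stood apart gave 2 in KO mice and 0 for the difference (120 over all, and 22 between genotypes after MCAO). Without WT naive array 6, centring gave 7 (18356 over all), with Pgk1 1417864_at at -0.23 (adjusted p = 0.00106) in place of 0.09, and the replicate block 9 (17452 over all). The cause was not tested.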
